A study of Mus musculus with 4 samples.

Results

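The 8 genes described here encode clusterin (Clu) and surface or enzyme markers used to pick out progenitor and regenerating epithelial cells: Ly6a, Epcam, Prom1, Cd24a, Dclk1, Aldh1a1 and Aldh1a3. They were chosen by name from 52535 gene models, with earlier results of these data known. Clusterin is a secreted chaperone that binds misfolded proteins and lipids, and in the mouse intestine it marks cells that appear after injury and depend on the co-activator YAP. Ly6a (Sca-1), Epcam, Prom1 (CD133) and Cd24a are membrane proteins used to sort progenitor cells. The kinase Dclk1 marks tuft cells and rare duct cells of the mouse pancreas, and the aldehyde dehydrogenases Aldh1a1 and Aldh1a3 make retinoic acid and give the signal of the dye assay for progenitor cells.

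RNA was sequenced from mouse pancreas samples whose cell type is given as ductal, all of strain C57BL/6. The 2 libraries labelled knockout (KO 1 and KO 2) have the genotype Lats1fl/fl; Lats2fl/fl; Sox9-CreER, and the 2 wild-type libraries (WT 1 and WT 2) are given as wild type with no allele named. Lats1 and Lats2 are the Hippo kinases that restrain YAP and TAZ, and Sox9-CreER is a tamoxifen-activated Cre made in cells that express Sox9, so cells that lack Sox9 are not its target. The sources used here give no age, isolation method or time after Cre activation. Whether replicates are different mice is not said, and p-values therefore reflect only the spread among these 4 libraries, which may be technical.

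Transcripts of the 2 targeted kinases were not lower in KO 1 and KO 2. Lats1 had 69.6 and 78.7 CPM (counts scaled to library size, with TMM factors) in KO 1 and KO 2, against 50.5 and 65.3 CPM in WT 1 and WT 2 (log2 fold change 0.36 ± 0.19 SE, edgeR adjusted p = 0.171). Lats2 had 162 and 121 CPM in KO 1 and KO 2, against 114 and 102 CPM in WT 1 and WT 2 (log2 fold change 0.39 ± 0.19 SE, edgeR adjusted p = 0.127), and it passed the threshold without KO 2 (0.63, edgeR adjusted p = 0.036) and with no filter on low counts (0.47, edgeR adjusted p = 0.0433). Counts over whole gene models can include transcripts that lack the floxed exons, so these values do not check the deletion, and direction is given by label throughout. The YAP target Ctgf averaged 1249 ± 43.6 CPM in the libraries labelled KO and 32.9 ± 2.22 CPM in the WT libraries (SD, n = 2 each), a 38.0-fold difference (edgeR adjusted p = 1.12e-05). Of 13990 genes tested, 42.2% passed an adjusted p of 0.05, with 22.0% higher and 20.2% lower in the libraries labelled KO. Library totals lay between 3566387 and 5925601 counts.

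Markers of other pancreatic cell types also differed between the groups. A list of 16 macrophage genes summed to 7512 and 5348 CPM in KO 1 and KO 2, against 849 and 762 CPM in WT 1 and WT 2, with 14 of 16 higher and 1 lower. Fibroblast and stellate cell genes summed to 19420.2 and 13098 CPM in KO 1 and KO 2, against 4763 and 4219 CPM in WT 1 and WT 2, with 11 of 15 higher and 1 lower (0 lower without WT 2 or KO 2). B cell genes summed to 285 and 119.6 CPM in KO 1 and KO 2, against 3014 and 3322 CPM in WT 1 and WT 2, and T and NK cell genes to 64.2 and 31.2 CPM in KO 1 and KO 2, against 1529 and 1619 CPM in WT 1 and WT 2. All 12 tested B cell genes and all 15 tested T and NK cell genes were lower. Endothelial genes summed to 1067 and 965 CPM in KO 1 and KO 2, against 2142 and 2039 CPM in WT 1 and WT 2, with 10 of 13 lower. Acinar genes summed to 245 and 6725 CPM in KO 1 and KO 2, against 75017 and 133873 CPM in WT 1 and WT 2, with 3 of 23 lower, but 20 of the listed genes lower without KO 1, 21 without KO 2 and in limma-voom, 19 in the DESeq2 Wald test and 6 with the replicate number as a block (the replicate block). A list of 25 hepatocyte genes, added after values were seen and given without a test, summed to 91.0 and 70.8 CPM in KO 1 and KO 2, against 11478 and 387 CPM in WT 1 and WT 2, so WT 1 stood apart from the other libraries. The albumin transcript Alb had 21060 counts in WT 1. Duct genes, the labelled cell type, were present in every library and summed to 15607 and 15490.4 CPM in KO 1 and KO 2, against 2807 and 3398 CPM in WT 1 and WT 2, with 11 of 18 higher and 3 lower. No listed duct, macrophage, fibroblast, B cell or endothelial gene was at 0 in any library. In such bulk samples, fewer cells of a type and less RNA per cell cannot be told apart.

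Clu and Epcam were higher in the libraries labelled KO, Dclk1 was lower, and Ly6a, Prom1, Cd24a, Aldh1a1 and Aldh1a3 did not pass the threshold. That is 2 higher and 1 lower of 8 genes, all of which were tested, beside the 22.0% higher and 20.2% lower over all genes. Their median log2 fold change was 0.56, against -0.01 over all genes tested. The groups did not overlap for 6 of the 8 genes, with 5 above and 1 below the WT libraries, while over all genes 74.3% did not overlap, 37.4% above and 36.8% below.

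**Figure D1:**
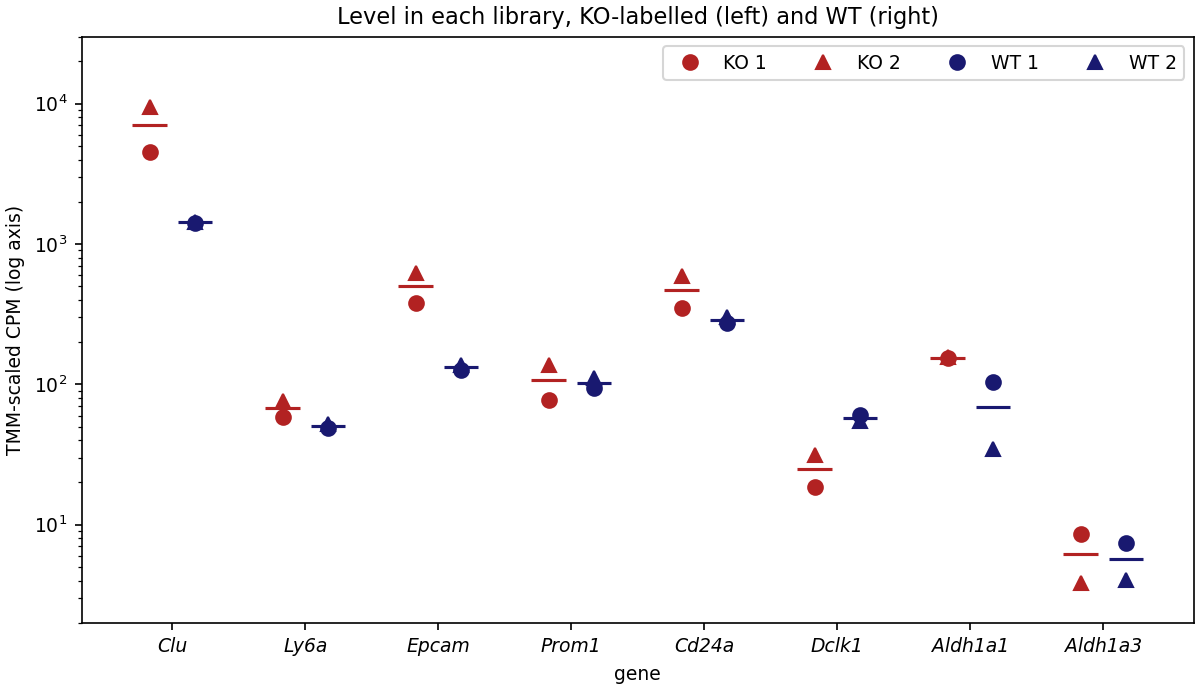
TMM-scaled CPM (log axis) of the 8 genes in each library, with KO-labelled libraries in red on the left and WT libraries in dark blue on the right, and a line at each group mean. Clu lies at 4556 and 9470.3 CPM in KO 1 and KO 2, above 1409.8 and 1445 CPM in WT 1 and WT 2, and Dclk1 is the gene whose KO-labelled points both lie below WT.

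Clu (mm10, chr14:65968483-65981547, plus strand), the secreted chaperone, had 4556 and 9470.3 CPM in KO 1 and KO 2, against 1409.8 and 1445 CPM in WT 1 and WT 2. Both libraries labelled KO stood above both WT libraries, and KO 2 stood well above KO 1. The means were 7013 ± 3475 CPM in the libraries labelled KO and 1427 ± 24.6 CPM in the WT libraries (SD, n = 2 each). The log2 fold change was 2.30 ± 0.35 SE, a 4.91-fold difference (edgeR adjusted p = 0.00189). It was 2.73 without KO 1 and 1.71 without KO 2, and it passed the threshold with any 1 of the 4 libraries left out. Clu alone took 0.448% of all counts in KO 1 (95% Wilson interval 0.442 to 0.454%) and 0.993% in KO 2 (0.985 to 1.00%), against 0.145% in WT 1 (0.141 to 0.149%) and 0.137% in WT 2 (0.133 to 0.140%). By count, it ranked 11 in KO 1 and 2 in KO 2 among all models, and 67 in both WT libraries.

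Among 16 tested genes for clusterin, its receptors, related lipid carriers and complement inhibitors, 9 were higher and 1 was lower (median log2 fold change 1.10). Without KO 1 only 5 passed as higher, and 2 were lower without WT 1 or without WT 2, with the replicate block, in limma-voom and in the DESeq2 Wald test. The macrophage receptor Trem2, which binds clusterin, had 76.0 and 50.5 CPM in KO 1 and KO 2, against 5.46 and 3.35 CPM in WT 1 and WT 2 (14.5-fold, log2 fold change 3.85 ± 0.33 SE, edgeR adjusted p = 6.69e-05). The endocytic receptor Lrp2 (megalin) had 11.6 and 6.28 CPM in KO 1 and KO 2, against 0 and 1.34 CPM in WT 1 and WT 2, and its call (edgeR adjusted p = 0.0106) was lost without KO 1 (0.112) or KO 2 (0.0652). Cd55, a membrane inhibitor of complement, fell to 30.4 and 23.7 CPM in KO 1 and KO 2, against 171 and 178 CPM in WT 1 and WT 2 (6.47-fold lower, log2 fold change -2.69 ± 0.19 SE, edgeR adjusted p = 2.9e-05). Chosen after values were seen, the scavenger receptor Lrp1 was at 2575 and 1859 CPM in KO 1 and KO 2, against 439 and 352 CPM in WT 1 and WT 2 (log2 fold change 2.49, edgeR adjusted p = 0.000114). Apoe, also chosen after values were seen, had a log2 fold change of 1.66 (edgeR adjusted p = 0.0217), a call lost without WT 2 (0.0654), KO 1 (0.339) or KO 2 (0.351) and with library totals alone (0.0897). Apoe lay at 11090.5 and 11113.7 CPM in KO 1 and KO 2, against 4992 and 2017 CPM in WT 1 and WT 2. WT 1 is the library with the hepatocyte transcripts given above. Trem2, Lrp1 and Apoe are also made by macrophages. The listed macrophage genes summed to between 5348 and 7512 CPM in the libraries labelled KO and between 762 and 849 CPM in the WT libraries. The part of macrophages and hepatocytes in the result was not tested.

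Epcam (chr17:87635979-87651106, plus strand), the epithelial cell adhesion molecule, had 382 and 627 CPM in KO 1 and KO 2, against 127.6 and 138 CPM in WT 1 and WT 2. The groups did not overlap, and KO 2 was again the highest library. The means were 504 ± 173 CPM in the libraries labelled KO and 133 ± 7.59 CPM in the WT libraries (SD, n = 2 each). The log2 fold change was 1.92 ± 0.24 SE, a 3.79-fold difference (edgeR adjusted p = 0.000559), with 2.24 without KO 1 and 1.56 without KO 2. The window of 250 bases before the Epcam start is shown because this member rose and its model begins at the RefSeq start. Capitals mark a GC box (GGGCGG, read on both strands) 58 bases upstream, a motif that 32.7% of 32851 RefSeq windows of that length hold.
Epcam promoter, GRCm38.p6, chr17:87635729-87635978, plus strand: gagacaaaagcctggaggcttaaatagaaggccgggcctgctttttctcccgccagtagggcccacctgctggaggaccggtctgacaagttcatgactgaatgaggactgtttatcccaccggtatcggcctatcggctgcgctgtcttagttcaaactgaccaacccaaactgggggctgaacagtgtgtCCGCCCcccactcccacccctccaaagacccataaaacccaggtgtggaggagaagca

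Cd24a (chr10:43578284-43584265, plus strand), a small sugar-rich protein held by a lipid anchor, had 349 and 593 CPM in KO 1 and KO 2, against 273 and 302 CPM in WT 1 and WT 2. Both libraries labelled KO stood above WT, KO 1 by a narrow margin. The log2 fold change of 0.71 ± 0.25 SE (1.64-fold) lay just short of the threshold, with an edgeR adjusted p of 0.0528. It passed without KO 1 (1.05, edgeR adjusted p = 0.00244) and did not without KO 2 (0.31, edgeR adjusted p = 0.178). It also passed in the DESeq2 Wald test (0.69, adjusted p = 0.0294). Parts of the Cd24a coding sequence lie in near-identical copies: Gm6212, at 93.3% identity over 164 bases, and Gm15352, at 92% over 163 bases and with 0 counts in every library. The sources used here do not say how reads shared with copies were counted.

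Prom1 (chr5:43993620-44102032, minus strand), a membrane protein of cell protrusions, had 77.0 and 138 CPM in KO 1 and KO 2, against 94.3 and 112 CPM in WT 1 and WT 2. The WT libraries lay between the libraries labelled KO. The log2 fold change was 0.06 ± 0.28 SE (edgeR adjusted p = 0.876), and its sign depended on the library left out, from -0.38 without KO 2 to 0.43 without KO 1. Prom1 has an opposite-strand neighbour, Gm16401, which shares 424 exonic bases with it and had at most 1 count in a library. Its RefSeq windows hold the AP-1 letters TGANTCA 88 bases before one start, as TGACTCA, and 189 bases before another, as TGAATCA. The first of these windows also holds a CCAAT box and a GC box, 35 and 62 bases before its start, and all its 250 bases lie in Prom1 exons. TGANTCA is held by 6.75% of the 32851 RefSeq windows.

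Among 20 tested genes for partners of Epcam, tetraspanins, prominins and the proteases that cut them, Epcam and Prom1 included, 13 were higher and 2 lower (median log2 fold change 1.0). The tight-junction protein Cldn4 had 551 and 1034 CPM in KO 1 and KO 2, against 184 and 163 CPM in WT 1 and WT 2 (4.57-fold, edgeR adjusted p = 0.00169). It was high in both libraries labelled KO, with no overlap. Prom2, a relative of Prom1, was lower at 0 and 1.13 CPM in KO 1 and KO 2, against 4.10 and 3.80 CPM in WT 1 and WT 2, and its call (edgeR adjusted p = 0.0374) was lost without WT 1 (0.112), WT 2 (0.104) or KO 1 (0.164) and in the DESeq2 Wald test (0.0588). The tetraspanin Cd82 fell to 72.8 and 66.3 CPM in KO 1 and KO 2, against 175 and 153.5 CPM in WT 1 and WT 2 (2.36-fold lower, edgeR adjusted p = 0.00061). Without WT 1, WT 2 or KO 1, Cd82 was the 1 lower gene of the list. Further genes were chosen after values were seen. Cldn7, which binds Epcam, was at 83.6 and 113.6 CPM in KO 1 and KO 2, against 19.9 and 28.4 CPM in WT 1 and WT 2 (edgeR adjusted p = 0.000347). Cd44, the hyaluronan receptor, was at 898 and 937 CPM in KO 1 and KO 2, against 197 and 221 CPM in WT 1 and WT 2 (edgeR adjusted p = 5.22e-05), and the tetraspanin Cd9 at 151 and 158 CPM in KO 1 and KO 2, against 46.2 and 46.9 CPM in WT 1 and WT 2 (log2 fold change 1.73). Of the proteases that release parts of Epcam, Adam10 was higher by 1.07 (edgeR adjusted p = 0.00273) and Adam17 stood at 0.42 (edgeR adjusted p = 0.0756).

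Ly6a (chr15:74994877-74998031, minus strand), the Sca-1 antigen, had 58.4 and 76.8 CPM in KO 1 and KO 2, against 49.2 and 52.5 CPM in WT 1 and WT 2. The groups did not overlap, but KO 1 lay close to WT. The log2 fold change was 0.41 ± 0.20 SE (1.33-fold, edgeR adjusted p = 0.127), and 0.23 to 0.60 with 1 library left out. Its coding sequence of 402 bases matches Ly6i at 86.9% identity over 396 bases, and Ly6c1 at 90.5% and Ly6c2 at 89.2% over 158 bases each. Ly6i had 0 and 2 counts in KO 1 and KO 2, against 7 and 17 in WT 1 and WT 2, while Ly6a had 292 and 477 in KO 1 and KO 2, against 180 and 235 in WT 1 and WT 2.

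In the family of Ly6 and uPAR domain proteins, 12 of 33 listed genes were tested, 1 higher and 6 lower (median log2 fold change -0.98). Without KO 1, 2 were lower. Plaur, the urokinase receptor, was the gene that rose, with 179 and 190.2 CPM in KO 1 and KO 2, against 73.0 and 84.5 CPM in WT 1 and WT 2 (2.34-fold, edgeR adjusted p = 0.000611). Ly6c2, a monocyte and lymphocyte antigen, fell to 2.20 and 0.966 CPM in KO 1 and KO 2, against 19.1 and 45.4 CPM in WT 1 and WT 2 (20.8-fold lower, edgeR adjusted p = 0.00125). Ly6d, which marks B cell precursors and some epithelial cells, fell to 3.80 and 2.90 CPM in KO 1 and KO 2, against 46.7 and 39.8 CPM in WT 1 and WT 2 (12.9-fold lower, edgeR adjusted p = 4.14e-05). Lypd6b had 1 count over the libraries labelled KO and 21 over the WT libraries, a pooled ratio of WT over KO of 28.9 (95% exact binomial interval 4.65 to 1197), and its call was lost without KO 1 (edgeR adjusted p = 0.0899) or KO 2 (0.0507). Chosen after values were seen, Ly6c1 stood at 5.40 and 12.2 CPM in KO 1 and KO 2, against 18.0 and 17.7 CPM in WT 1 and WT 2 (log2 fold change -1.0, edgeR adjusted p = 0.0683), and passed as lower without KO 2 (-1.69, edgeR adjusted p = 0.0201), with the replicate block (-1.07, 0.00802), with upper quartile scaling (-1.20, 0.0329) and with no filter on low counts (-0.92, 0.0316). Ly6e, a widely made family member, was at 573 and 514 CPM in KO 1 and KO 2, against 614 and 643 CPM in WT 1 and WT 2 (log2 fold change -0.21, edgeR adjusted p = 0.334). Endothelial and lymphocyte genes, whose cells make several Ly6 proteins, were lower in the same libraries, at the summed levels given above. Their part in the result was not tested.

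Aldh1a1 (chr19:20492715-20643462, plus strand), a cytosolic retinaldehyde dehydrogenase, had 153 and 155 CPM in KO 1 and KO 2, against 103 and 34.6 CPM in WT 1 and WT 2. The libraries labelled KO nearly coincided and lay above both WT libraries, which were far apart. The means were 154 ± 1.42 CPM in the libraries labelled KO and 69.0 ± 48.5 CPM in the WT libraries (SD, n = 2 each), a log2 fold change of 1.17 ± 0.60 SE that missed the threshold (edgeR adjusted p = 0.213). Without WT 1, Aldh1a1 was higher by 2.17 (edgeR adjusted p = 0.00012), while without WT 2 the difference was 0.58 (edgeR adjusted p = 0.0843). It also passed in limma-voom (1.40, adjusted p = 0.0301). WT 1 is the library with the hepatocyte transcripts given above, and hepatocytes make Aldh1a1. Their part in the Aldh1a1 level of WT 1 was not tested. Of the tested genes, 9713 had a mean of at least 10 CPM over all libraries and counts in both WT libraries. Among them, 1.11% had a ratio of WT 2 over WT 1 at or below the 0.335 of Aldh1a1.

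The Aldh1a1 window nearest the model start is shown because the title of the study names YAP and AP-1. Capitals mark CATTCC, read by the TEAD partners of YAP, 168 bases before the RefSeq start, and TGANTCA, the AP-1 site, here as TGACTCA 57 bases before it. Of the 7 windows found for 4 of the 8 genes, no other held CATTCC. The second Aldh1a1 window, before a start 109253 bases inside the model, held a CCAAT box and none of the other motifs sought. Over all 32851 RefSeq windows, 12.6% hold CATTCC and 6.75% hold TGANTCA on either strand, and a match is a description of letters only. The start used lies 132 bases before that of the model in the files.
Aldh1a1 promoter, GRCm38.p6, chr19:20492333-20492582, plus strand: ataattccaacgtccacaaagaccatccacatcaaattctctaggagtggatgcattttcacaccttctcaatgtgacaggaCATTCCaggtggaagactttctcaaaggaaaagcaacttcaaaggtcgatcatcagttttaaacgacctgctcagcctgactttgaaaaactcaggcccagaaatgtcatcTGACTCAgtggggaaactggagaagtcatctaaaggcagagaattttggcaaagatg

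Aldh1a3 (chr7:66390890-66427517, minus strand), the related enzyme, had 8.60 and 3.86 CPM in KO 1 and KO 2, against 7.38 and 4.02 CPM in WT 1 and WT 2. The groups overlapped, at 43 and 24 counts in KO 1 and KO 2, against 27 and 18 in WT 1 and WT 2. The log2 fold change was 0.13 ± 0.52 SE (edgeR adjusted p = 0.865), and no difference was detectable at this depth. Its sign turned with the library left out, from -0.55 without KO 1 to 0.63 without KO 2.

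In the retinoic acid pathway, which includes Aldh1a1 and Aldh1a3, 23 of 32 listed genes were tested, and 10 were higher and 2 lower (median log2 fold change 0.71). Without WT 2 these counts were 6 higher and 5 lower, and without KO 2, 6 were higher. The DESeq2 Wald test called 5 lower. Rdh10, which oxidises retinol to retinaldehyde, had 87.8 and 133 CPM in KO 1 and KO 2, against 17.8 and 10.1 CPM in WT 1 and WT 2 (8.02-fold, log2 fold change 3.0 ± 0.33 SE, edgeR adjusted p = 0.000496). Dhrs9, another retinol dehydrogenase, had 49 and 46 counts in KO 1 and KO 2, against 0 and 3 in WT 1 and WT 2, a pooled ratio of KO over WT of 23.0 (95% exact binomial interval 7.63 to 113). Both genes were high in both libraries labelled KO. Lrat, which turns retinol into its stored ester form and marks quiescent stellate cells, fell to 0.800 and 1.61 CPM in KO 1 and KO 2, against 23.0 and 17.9 CPM in WT 1 and WT 2 (16.2-fold lower, edgeR adjusted p = 0.000183). Rdh12, a retinaldehyde reductase, had 1 count over the libraries labelled KO and 47 over the WT libraries, a pooled ratio of WT over KO of 64.8 (95% exact binomial interval 11.1 to 2612). Chosen after values were seen, Aldh1a2, the third enzyme that makes retinoic acid, was at 112 and 97.2 CPM in KO 1 and KO 2, against 38.8 and 58.8 CPM in WT 1 and WT 2 (2.14-fold, edgeR adjusted p = 0.00495). Aldh1a2 and Lrat are also made by stromal cells, and the fibroblast and stellate list summed to between 13098 and 19420.2 CPM in the libraries labelled KO and between 4219 and 4763 CPM in the WT libraries. Their part in the result was not tested.

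Of 13 other aldehyde dehydrogenases tested, none was higher and 4 were lower (median log2 fold change -0.40). At an unadjusted p under 0.05, 1 gene was higher and 5 were lower, while limma-voom and the DESeq2 Wald test called 0 genes higher. However, 1 gene was higher without WT 1 or KO 2, and likewise with library totals alone in place of TMM factors, with no filter on low counts and with the replicate block. The count of lower genes fell without WT 1, KO 1 or KO 2 and rose without WT 2. It was 2 with library totals alone and 1 in limma-voom. Aldh18a1, an enzyme of proline synthesis, fell to 21.2 and 24.1 CPM in KO 1 and KO 2, against 43.4 and 43.1 CPM in WT 1 and WT 2 (1.91-fold lower, edgeR adjusted p = 0.00725). Aldh4a1, which breaks proline down, had a log2 fold change of -2.13 (edgeR adjusted p = 0.0371), a call lost without WT 1 (0.443), KO 1 (0.135) or KO 2 (0.209) and in limma-voom (0.108). The near copy of Aldh1a1, Aldh1a7, shares 91.9% identity over 1506 bases and, named after values were seen, had 5 and 28 counts in KO 1 and KO 2, against 60 and 22 in WT 1 and WT 2, while Aldh1a1 had 767 and 966 in KO 1 and KO 2, against 378 and 155 in WT 1 and WT 2. The hepatocyte list, whose cells hold much of these enzymes, was at 11478 CPM in WT 1 and at most 387 CPM in the other libraries, and its part in these values was not tested.

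Dclk1 (chr3:55242364-55539068, plus strand), a microtubule-binding kinase, fell to 18.6 and 31.4 CPM in KO 1 and KO 2, against 60.9 and 54.7 CPM in WT 1 and WT 2. Both libraries labelled KO lay below both WT libraries. The means were 25.0 ± 9.03 CPM in the libraries labelled KO and 57.8 ± 4.37 CPM in the WT libraries (SD, n = 2 each), a log2 fold change of -1.20 ± 0.27 SE, or 2.30-fold lower (edgeR adjusted p = 0.00714). Its call held with any 1 library left out, from -1.60 without KO 2 to -0.88 without KO 1 (edgeR adjusted p = 0.0287). The opposite-strand model Gm42609 shares 87 exonic bases with Dclk1 and had at most 3 counts in a library. Because Dclk1 is the member that fell, both of its RefSeq windows are shown: the first lies before the start of the model, the second before a start 219364 bases inside it. Capitals mark a CCAAT box 48 bases upstream in the first window, and AP-1 letters (TGANTCA) 59 and 20 bases upstream in the second. CCAAT is held by 33.8% of all windows. Counts over whole models do not separate the 2 starts.
Dclk1 first promoter, GRCm38.p6, chr3:55242114-55242363, plus strand: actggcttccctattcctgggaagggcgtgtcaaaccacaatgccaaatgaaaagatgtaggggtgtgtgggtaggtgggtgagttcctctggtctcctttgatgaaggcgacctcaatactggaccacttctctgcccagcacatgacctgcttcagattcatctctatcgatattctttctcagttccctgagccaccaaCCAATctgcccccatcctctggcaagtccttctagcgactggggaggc
Dclk1 inner promoter, GRCm38.p6, chr3:55461478-55461727, plus strand: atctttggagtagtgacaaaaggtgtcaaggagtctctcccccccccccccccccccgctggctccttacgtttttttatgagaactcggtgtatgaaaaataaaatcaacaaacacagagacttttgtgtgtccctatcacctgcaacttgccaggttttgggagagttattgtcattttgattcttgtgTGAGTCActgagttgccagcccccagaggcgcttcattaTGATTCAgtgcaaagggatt

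Among 15 tested genes of the doublecortin family and of tuft cells, the chemosensory epithelial cells, 4 were higher and 7 lower (median log2 fold change 0.02). Trpm5, their cation channel, had 2 counts over the libraries labelled KO and 49 over the WT libraries, a pooled ratio of WT over KO of 33.8 (95% exact binomial interval 8.86 to 287). Rgs13, a regulator of G protein signals, had 1 count over the libraries labelled KO and 41 over the WT libraries, a ratio of 56.5 (9.59 to 2286). Chosen after values were seen, the tuft cell actin binder Avil fell to 1.60 and 0.966 CPM in KO 1 and KO 2, against 16.7 and 12.7 CPM in WT 1 and WT 2 (11.4-fold lower, edgeR adjusted p = 0.000423), and Dclk2, the closest relative of Dclk1, to 2.80 and 0.966 CPM in KO 1 and KO 2, against 20.2 and 14.7 CPM in WT 1 and WT 2 (9.44-fold lower, edgeR adjusted p = 0.0011). These genes were low in both libraries labelled KO. The defining factor Pou2f3 was not tested and was at 0 in KO 2, and Il25 was at 0 in every library. Alox5ap, an activator of leukotriene synthesis that leukocytes also make, rose instead, with 36.2 and 17.9 CPM in KO 1 and KO 2, against 4.37 and 3.13 CPM in WT 1 and WT 2 (7.20-fold, edgeR adjusted p = 0.00115). Its partner enzyme Alox5 was higher by 1.99 (edgeR adjusted p = 0.0106), a call lost without WT 2 (0.055) or KO 1 (0.0931). The other higher genes of the list, chosen after values were seen, were Ptgs1 (3.10-fold, edgeR adjusted p = 0.00362) and Hpgds (3.35-fold, edgeR adjusted p = 0.00643). Its other lower genes, chosen likewise, were Plcb2 (6.05-fold lower, edgeR adjusted p = 0.000182) and Vav1 (1.77-fold lower, edgeR adjusted p = 0.00411). Macrophage genes were higher and lymphocyte genes lower in the same libraries, and their part in the result was not tested.

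**Figure D2:**
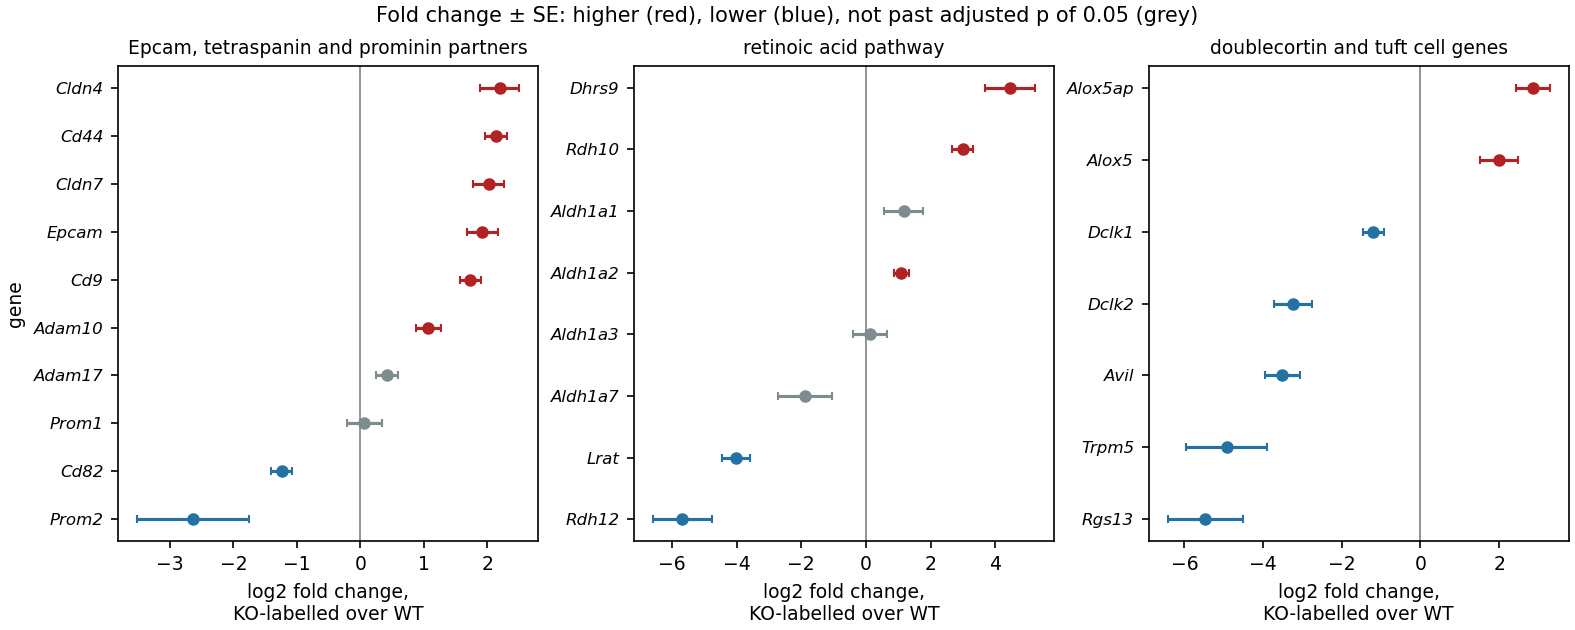
Log2 fold change (KO-labelled over WT) with its SE for selected tested genes of 3 lists, with list names as panel titles. Colour gives the direction where the edgeR adjusted p passed 0.05, and grey marks genes that did not pass. Ptgs1 and Hpgds (both higher) and Plcb2 and Vav1 (both lower), of the right list, are not drawn. In the left panel Cd82 and Prom2 lie below 0, in the middle panel Lrat and Rdh12 are the lower genes past the threshold, and in the right panel Dclk1 lies at -1.20, on the side of Dclk2, Avil, Trpm5 and Rgs13.

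Clu and Ly6a are also used together as markers of a fetal-like regenerative state of gut epithelium. The list for that state, which shares Krt7 and Spp1 with the duct list, was drawn up with earlier results of these data known. Beside 22.0% higher and 20.2% lower over all genes, 26 of its 32 tested genes were higher and 4 lower (median log2 fold change 2.24). The lower count was 1 without WT 2 and 2 without WT 1, KO 1 or KO 2. Clu was among the higher genes and Ly6a was not. Msln (mesothelin) had 283 and 264 CPM in KO 1 and KO 2, against 4.92 and 8.27 CPM in WT 1 and WT 2 (40.8-fold, log2 fold change 5.35 ± 0.26 SE, edgeR adjusted p = 1.18e-05). Ereg, a ligand of the EGF receptor, had 43.8 and 43.9 CPM in KO 1 and KO 2, against 0.546 and 0.670 CPM in WT 1 and WT 2 (log2 fold change 6.10 ± 0.35 SE, edgeR adjusted p = 1.51e-05), resting on 2 and 3 counts in WT 1 and WT 2. Both were low in WT and high in both libraries labelled KO. Annexin A1 (Anxa1), chosen after values were seen, was at 777 and 607 CPM in KO 1 and KO 2, against 49.2 and 57.9 CPM in WT 1 and WT 2 (12.9-fold). Ly6d, given above, and Spon2, a matrix protein, fell. The Spon2 call (log2 fold change -1.99, edgeR adjusted p = 0.0344) was lost without WT 2 (0.318), KO 1 (0.109) or KO 2 (0.235) and in limma-voom (0.0626). Msln is also a gene of the mesothelial list, which summed to 1236 and 1085 CPM in KO 1 and KO 2, against 325 and 265 CPM in WT 1 and WT 2, with 3 of 6 tested genes higher. Macrophage, fibroblast and duct genes, at the summed levels given above, were higher in the same libraries too. The part of these cell types in the result was not tested.

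Of 27 tested stem and progenitor markers, 9 were higher and 4 lower (median log2 fold change 0.32), and 2 were lower without WT 2. The reprogramming factor Klf4 had 341 and 392 CPM in KO 1 and KO 2, against 69.1 and 69.9 CPM in WT 1 and WT 2 (5.26-fold, edgeR adjusted p = 2.84e-05). Lgr5, the R-spondin receptor of intestinal stem cells, had 23 and 24 counts in KO 1 and KO 2, against 2 and 3 counts in WT 1 and WT 2, and its call (log2 fold change 2.73, edgeR adjusted p = 0.00787) was lost without KO 1 (0.0973) or KO 2 (0.0633). Olfm4, a secreted marker of the same cells, fell to 1.40 and 8.37 CPM in KO 1 and KO 2, against 63.4 and 53.2 CPM in WT 1 and WT 2 (log2 fold change -3.52, edgeR adjusted p = 0.0279), and its call was lost without WT 1 (0.124) or WT 2 (0.0981), with the replicate block (0.191) and with library totals alone (0.051). Abcb1a, a drug efflux pump, fell to 20.0 and 13.7 CPM in KO 1 and KO 2, against 59.3 and 42.5 CPM in WT 1 and WT 2 (3.02-fold lower, edgeR adjusted p = 0.00203). Chosen after values were seen, the duct and progenitor factor Sox9 was at 348 and 451 CPM in KO 1 and KO 2, against 83.6 and 107.9 CPM in WT 1 and WT 2 (4.17-fold, edgeR adjusted p = 0.000131).

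Of the 7 tested ligands and partners of Cd24a, 2 were higher and 3 lower (median log2 fold change -0.17). Siglec1, a sialic acid receptor of macrophages, had 100 and 56.5 CPM in KO 1 and KO 2, against 18.9 and 17.9 CPM in WT 1 and WT 2 (4.25-fold, edgeR adjusted p = 0.000844), and the kinase Lyn was higher by 0.82 (edgeR adjusted p = 0.00438). Siglecg, the B cell receptor of Cd24a, fell to 3.20 and 1.77 CPM in KO 1 and KO 2, against 29.2 and 27.7 CPM in WT 1 and WT 2 (11.5-fold lower, edgeR adjusted p = 0.000136). Spn (CD43), a leukocyte surface protein, fell to 21.4 and 9.17 CPM in KO 1 and KO 2, against 249.7 and 248 CPM in WT 1 and WT 2 (16.4-fold lower, edgeR adjusted p = 0.000897). B cells themselves make Cd24a, and the B cell list was lower in the libraries labelled KO, at 285 and 119.6 CPM in KO 1 and KO 2, against 3014 and 3322 CPM in WT 1 and WT 2. Its part in the Cd24a level was not tested.

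**Figure D3:**
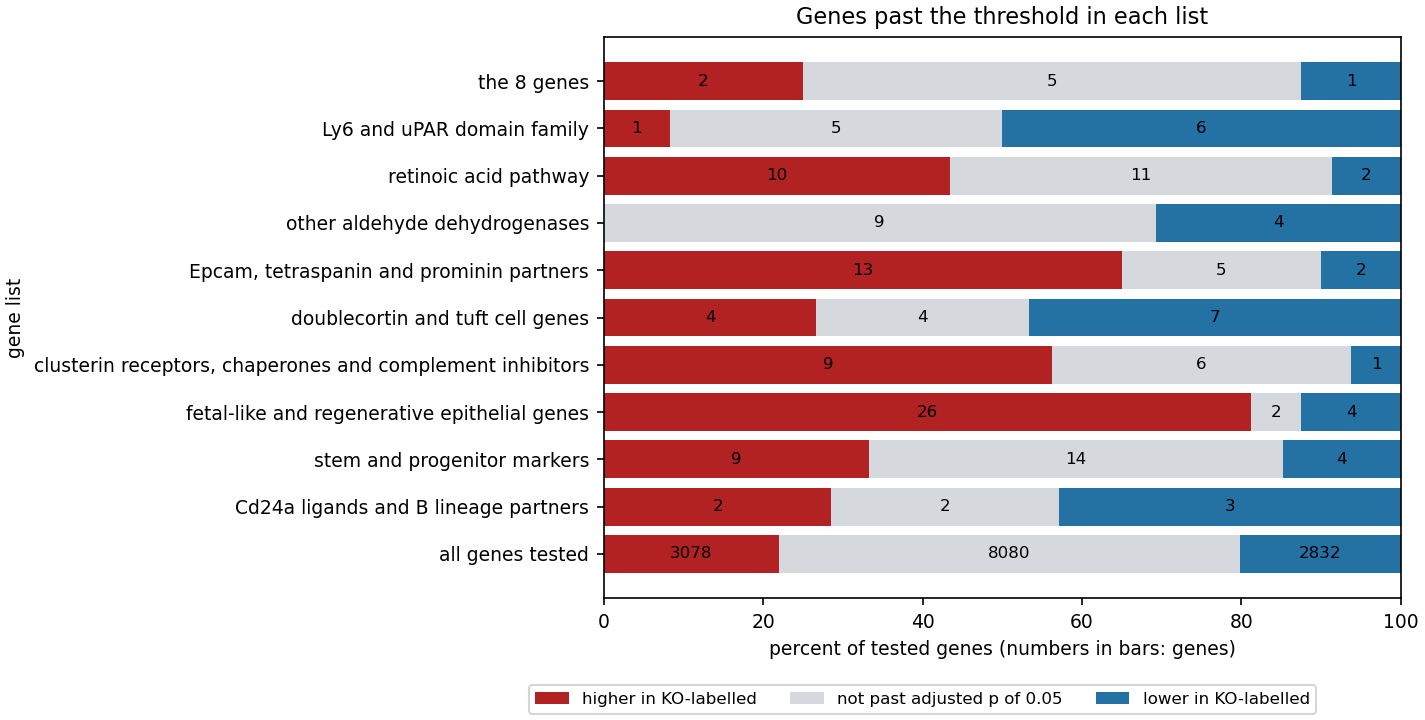
Share of the tested genes of each list that were higher (red), lower (blue) or not past an edgeR adjusted p of 0.05 (grey) in the libraries labelled KO, with the number of genes in each bar. The 8 genes have 2 higher and 1 lower, beside 3078 higher and 2832 lower of all 13990 tested genes.

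Per kilobase of exon, Clu was the most abundant of the 8 in both groups, at 2040.4 ± 1011 CPM per kb in the libraries labelled KO and 415 ± 7.17 CPM per kb in the WT libraries (SD, n = 2 each). In the libraries labelled KO the order of levels went on with Epcam at 230 ± 78.7, Cd24a at 183 ± 66.9, Ly6a at 56.1 ± 10.8, Aldh1a1 at 31.3 ± 0.287, Prom1 at 15.0 ± 5.99, Dclk1 at 1.63 ± 0.591 and Aldh1a3 at 1.35 ± 0.726 CPM per kb. Epcam and Cd24a overlapped there, as did Dclk1 and Aldh1a3. In the WT libraries Cd24a came second at 112 ± 7.92, above Epcam at 60.6 ± 3.46, Ly6a at 42.2 ± 1.96, Prom1 at 14.3 ± 1.70, Aldh1a1 at 14.0 ± 9.83, Dclk1 at 3.78 ± 0.286 and Aldh1a3 at 1.23 ± 0.514 CPM per kb. Only Prom1 and Aldh1a1 overlapped among those neighbours. Lengths join all annotated exons of a gene, from 1205 bases for Ly6a to 15296 for Dclk1, whichever transcripts were made. The order of levels depends on these lengths.

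The 2 libraries labelled KO differed from each other for most of these genes. The ratio of KO 2 over KO 1 was 2.08 for Clu, 1.79 for Prom1, 1.70 for Cd24a, 1.69 for Dclk1, 1.64 for Epcam, 1.31 for Ly6a, 1.01 for Aldh1a1 and 0.449 for Aldh1a3. Thus 7 of 8 were higher in KO 2. For comparison, 9696 tested genes had a mean of at least 10 CPM over all libraries and counts in both libraries labelled KO. Their median ratio was 0.999, and 49.8% lay above 1. The 5th and 95th percentiles were 0.624 and 1.62, and 1.77% were at or above Clu. In the WT libraries the ratio of WT 2 over WT 1 lay between 0.899 for Dclk1 and 1.18 for Prom1, apart from 0.545 for Aldh1a3 and 0.335 for Aldh1a1. Fibroblast genes summed to 13098 CPM in KO 2 and 19420.2 CPM in KO 1, and macrophage genes to 5348 CPM in KO 2 and 7512 CPM in KO 1. Duct genes summed to 15490.4 CPM in KO 2 and 15607 CPM in KO 1. Acinar genes went the other way, at 6725 CPM in KO 2 and 245 CPM in KO 1. The part of these cell types in the ratios was not tested.

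**Figure D4:**
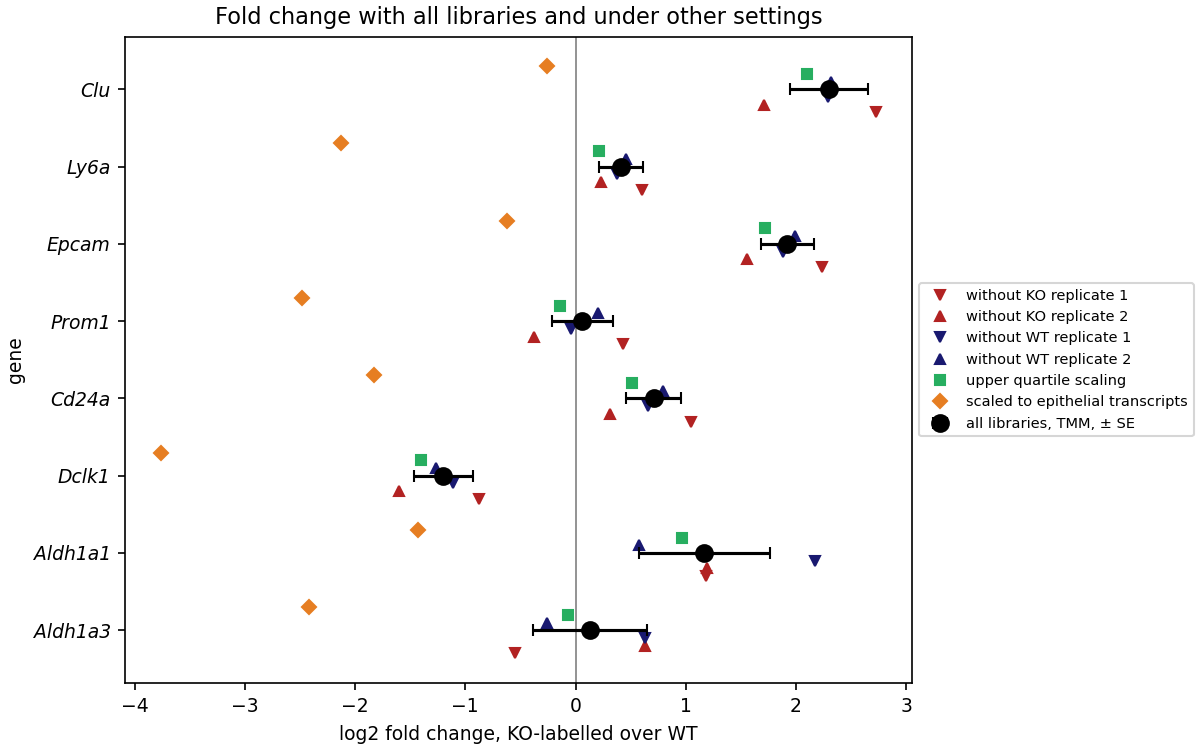
Log2 fold change (KO-labelled over WT) of the 8 genes with all libraries and its SE (black), with 1 library left out (triangles), with upper quartile scaling (squares) and with libraries scaled to 6 epithelial genes (diamonds). Clu spans 1.71 to 2.73 and Dclk1 -1.60 to -0.88 with 1 library left out, and the epithelial scaling places every gene below 0.

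Because the duct gene list itself was higher in the libraries labelled KO, the members were also set against 6 epithelial genes: the keratins Krt8 and Krt18, the adhesion protein Cdh1 and the claudins Cldn3, Cldn4 and Cldn7. These summed to 8667 and 8927 CPM in KO 1 and KO 2, against 1395 and 1634 CPM in WT 1 and WT 2, a 5.81-fold difference, and all 6 genes were higher. The keratins made up between 71.9 and 81.6% of the sum in the libraries labelled KO and between 68.3 and 70.3% in the WT libraries. Per 100 epithelial counts, Clu had 52.6 and 106 counts in KO 1 and KO 2, against 101 and 88.4 in WT 1 and WT 2, so the groups overlapped. Epcam had 4.41 and 7.02 in KO 1 and KO 2, against 9.15 and 8.47 in WT 1 and WT 2, and Cd24a had 4.03 and 6.64 in KO 1 and KO 2, against 19.6 and 18.5 in WT 1 and WT 2. Dclk1 had 0.215 and 0.352 in KO 1 and KO 2, against 4.37 and 3.35 in WT 1 and WT 2, the widest gap of the 8. Prom1 had 0.889 and 1.54 in KO 1 and KO 2, against 6.76 and 6.83 in WT 1 and WT 2, and Ly6a had 0.674 and 0.860 in KO 1 and KO 2, against 3.53 and 3.21 in WT 1 and WT 2.

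With libraries scaled to these 6 genes in the edgeR fit, all 8 estimates were below 0. Of the 8, 6 passed as lower in the libraries labelled KO. Under the same scaling 91.2% of all 13990 tested genes passed as lower and 1.3% as higher, and the median log2 fold change of all genes was -2.55. Dclk1 was lower by 3.76 (edgeR adjusted p = 2.82e-07), Prom1 by 2.48 (4.24e-06), Aldh1a3 by 2.42 (0.00123), Ly6a by 2.13 (2.28e-06), Cd24a by 1.83 (2.44e-05) and Epcam by 0.62 (0.0276) on the log2 scale. Clu stood at -0.26 (edgeR adjusted p = 0.491) and Aldh1a1 at -1.43 (edgeR adjusted p = 0.152). Both scales describe the same counts. Per library, Clu and Epcam were higher. Relative to the sum of the 6 genes, most of it keratin, Epcam was lower and Clu did not pass the threshold. With TMM factors, the log2 fold change of Epcam was 1.92, beside 2.61 for Krt8, 2.79 for Krt18 and 2.16 for Cdh1. The claudins stood at 1.90 for Cldn3, 2.19 for Cldn4 and 2.02 for Cldn7, so the lower Epcam holds for the sum and not for each gene in it.

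**Figure D5:**
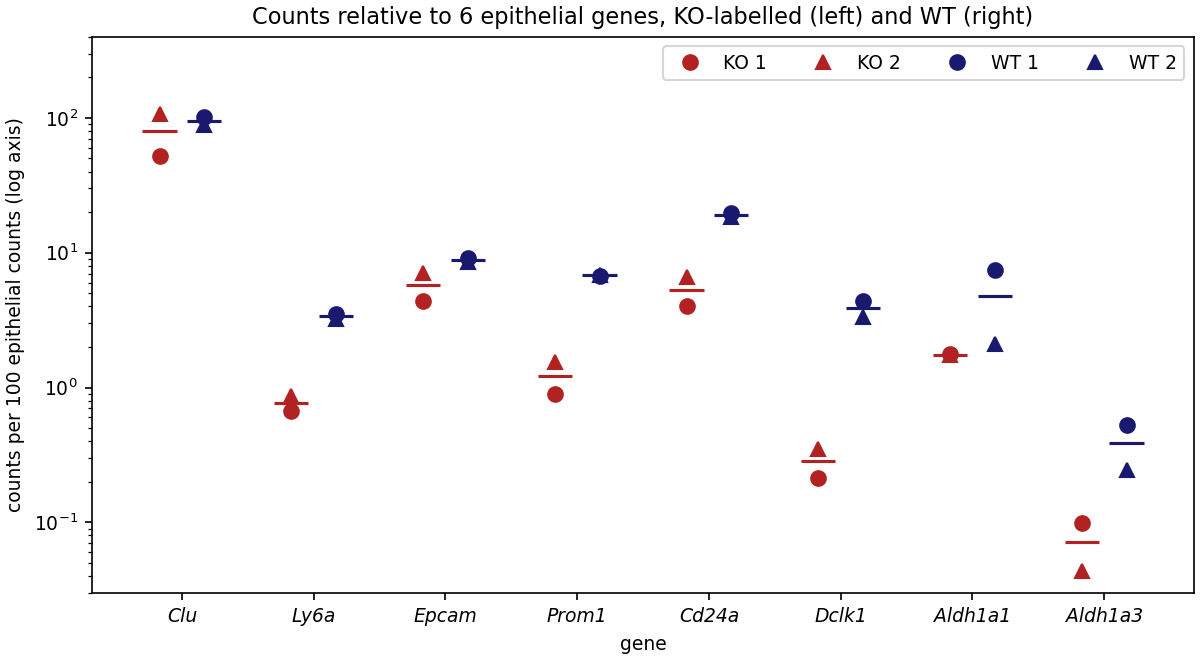
Counts of each gene per 100 counts of the 6 epithelial genes (log axis), with KO-labelled libraries in red on the left and WT libraries in dark blue on the right, and a line at each group mean. Clu overlaps between the groups, at 52.6 and 106 in KO 1 and KO 2, against 101 and 88.4 in WT 1 and WT 2, and Dclk1 lies lower in both libraries labelled KO.

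Genes whose levels followed the 3 called members most closely were found by the distance between centred log2 CPM over the 4 libraries, among 12930 candidates. They were picked for that pattern, so a shared order of libraries follows from the choice. Nearest to Clu were Cldn4 (distance 0.196), given above, and the small GTPase Arl4c (0.214), at 175 and 399 CPM in KO 1 and KO 2, against 60.4 and 68.4 CPM in WT 1 and WT 2. The Arl4c call (edgeR adjusted p = 0.0179) was lost without WT 1 (0.0897) or WT 2 (0.0792). Nearest to Epcam were the kinase Plk2 (0.0934), at 258 and 418 CPM in KO 1 and KO 2, against 84.2 and 99.2 CPM in WT 1 and WT 2, and the polarity protein Pard6b (0.118), at 94.2 and 142 CPM in KO 1 and KO 2, against 29.8 and 34.6 CPM in WT 1 and WT 2, both with KO 2 highest. Nearest to Dclk1 were the nuclear receptor Nr2f1 (0.0681), at 1.20 and 2.25 CPM in KO 1 and KO 2, against 4.37 and 3.80 CPM in WT 1 and WT 2, and Ccdc77 (0.0984), at 3.0 and 4.83 CPM in KO 1 and KO 2, against 9.29 and 8.72 CPM in WT 1 and WT 2. Nr2f1 did not pass the threshold (edgeR adjusted p = 0.105), and the Ccdc77 call (edgeR adjusted p = 0.0432) was lost with any 1 library left out.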

How the data were processed

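RNA was sequenced from 2 libraries labelled KO and 2 WT libraries of mouse pancreatic ducts. Per the labels' protocols, 1 µg of total RNA went into a strand-preserving SMARTer kit. The authors deposited raw read counts per gene model, 1 file of 52535 models per library. Per the submitters' processing notes, reads were processed on build mm10 with TopHat and edgeR, with no version named. The sources used here do not say which program counted reads, whether it used strand, or how it treated shared reads. Starts in the deposited files count from 0 and are printed from 1, and 94.9% of models had the coordinates of GENCODE M21, which gave exon lengths, near copies (blastn 2.17.0, at least 85% identity over 100 bases) and overlaps.

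The quasi-likelihood test of edgeR 4.0.16 in R 4.3.3 compared the genotypes on these counts, using TMM factors, robust dispersion and no other term. After filterByExpr it covered 13990 genes, with 2 residual degrees of freedom. Two-sided p-values were adjusted by Benjamini-Hochberg over all tested genes, with a threshold of 0.05. The procedure was tested on simulated data. Library totals were 5082636 and 5925601 counts in KO 1 and KO 2, and 3566387 and 4735183 in WT 1 and WT 2, and 3 counts corresponded to between 0.506 and 0.841 CPM. Where a group held 1 to 3 counts, pooled counts were compared as a ratio. Intervals cover counting error only, since no molecular identifiers are described. The 8 genes and the lists were chosen with earlier results of these data known. Named genes are the 8, Lats1, Lats2 and Ctgf as a readout, up to 2 of the largest rises and 2 of the largest falls past the threshold in each list, without overlap between groups, and the 2 nearest in pattern to each called member. Others are marked as chosen after values were seen. Some genes of these lists are not reported here. The readouts Cyr61 and Amotl2, set by the same rule, were 2.57-fold and 6.28-fold higher in the libraries labelled KO. Windows of 250 bases are from RefSeq (GRCm38.p6), which matched 4 of the 8 genes. Alternatives were DESeq2 1.42.0 size factors and its Wald test, upper quartile scaling, library totals alone, totals without acinar genes, no filter, limma-voom 3.58.1, a replicate block, scaling to 6 epithelial genes and leaving out each library.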

Additional observations from a re-analysis of the deposited data

How the results depend on the processing

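Dclk1 stayed lower, past the threshold, under every alternative run, and Clu and Epcam stayed higher under every one but the epithelial scaling, which had 0 of the 8 genes higher, 6 lower, and log2 fold changes of -0.26 for Clu, -2.13 for Ly6a, -0.62 for Epcam, -2.48 for Prom1, -1.83 for Cd24a and -2.42 for Aldh1a3. That scaling moves the median of all genes to -2.55 by its construction. Under it, 91.2% of all tested genes passed as lower and 1.3% as higher. Cd24a passed as higher with DESeq2 size factors (0.69), no filter (0.79), the replicate block (0.66) and the DESeq2 Wald test (0.69). Aldh1a1 passed with limma-voom (1.40). The cause was not tested.

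With 1 library left out, the log2 fold change ranged over 1.71 to 2.73 for Clu, 0.23 to 0.60 for Ly6a, 1.56 to 2.24 for Epcam, -0.38 to 0.43 for Prom1, 0.31 to 1.05 for Cd24a, -1.60 to -0.88 for Dclk1, 0.58 to 2.17 for Aldh1a1 and -0.55 to 0.63 for Aldh1a3, and 2 to 3 of the 8 were higher and 1 lower. Over all genes, 2265 to 2449 were higher and 1867 to 2276 lower, the lowest without KO 2, against 3078 and 2832 with all libraries.

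Upper quartile scaling moved the median of all genes to -0.20 and the share of calls that were higher to 39.4%, against 52.1% with TMM. Under it Prom1 stood at -0.14 and Aldh1a3 at -0.07, not past the threshold. Same-numbered libraries did not deviate together from their group means (correlation 0.028 over 13990 genes). With 2 libraries a group, that value cannot decide whether they were paired or shared a batch, and the labels name neither. The fit with the replicate block called 6656 genes, against 5910 without it. Apart from Cd24a, the block changed no call of the 8 genes, and among the other named genes Olfm4 was lost (edgeR adjusted p = 0.191) and Ly6c1 gained as lower (-1.07, edgeR adjusted p = 0.00802). With 2 libraries a group and 2 residual degrees of freedom, a p that misses the threshold does not show that levels were alike.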

Other observations

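Other cell types that the ducts could carry differed as well. Islet genes summed to 305 and 183 CPM in KO 1 and KO 2, against 1756 and 2309 CPM in WT 1 and WT 2, with 7 of 13 lower (13 without WT 1, 4 without KO 2, 12 with no filter on low counts, and 11 in both limma-voom and the DESeq2 Wald test). Smooth muscle genes summed to 1573 and 926 CPM in KO 1 and KO 2, against 4538 and 3774 CPM in WT 1 and WT 2, with 8 of 8 lower (3 without WT 1, 5 without KO 1 or KO 2). Schwann and neural genes, which include cells that make Dclk1, summed to 131 and 121 CPM in KO 1 and KO 2, against 398 and 339 CPM in WT 1 and WT 2, with 9 of 11 lower (5 without KO 2). Their part in the Dclk1 level was not tested. Neutrophil genes summed to 33.6 and 25.9 CPM in KO 1 and KO 2, against 235 and 120.9 CPM in WT 1 and WT 2, with 1 higher and 2 lower of 4 (the lower count was 1 without WT 1 or KO 1 and with the replicate block, 0 without KO 2 and 4 with no filter on low counts). Erythroid genes summed to 157 and 21.1 CPM in KO 1 and KO 2, against 131 and 421 CPM in WT 1 and WT 2, so the groups overlapped.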
